A study of Mus musculus with 18 samples.

Results

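Muc2, Tff3, Clca1, Fcgbp, Zg16, Agr2, Spdef, Spink4 and Atoh1 are 9 genes of the goblet cell, the mucus-secreting cell of the intestinal epithelium. They were taken as a list of symbols and matched to Ensembl identifiers, and all 9 were found among the 47729 identifiers counted. Their RNA was measured in bulk in epithelial cells sorted by flow cytometry from the mouse ileum, the last stretch of the small intestine. Of the 18 libraries, 6 were of lactating females taken at day 7 of lactation, 6 of virgin males and 6 of virgin females, the virgins being matched for age. Animals had the diet RM3 while breeding, and RM1 in maintenance colonies and for the experiment, and the labels do not say which diet the lactating females ate. The sources used here give no strain, genotype, age in weeks or sorting gate. The labels do not state that each library is a separate animal, so the p-values measure the spread between these libraries, which may be partly technical.

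Goblet cells arise from dividing crypt progenitors in which Atoh1 switches on the secretory programme while Notch signalling from neighbouring cells holds others to the absorptive fate. They fold very large mucin chains in the endoplasmic reticulum, pack them into granules and release them as a gel that keeps bacteria off the surface. In the small intestine this mucus is a single detachable layer, and Paneth cells, the other secretory cells at the crypt base, add antimicrobial peptides to it.

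The stretches around the transcription start of 5 members were available in RefSeq (mouse build GRCm38.p6), each with 250 bases before and 50 bases after the start. All 5 are shown, and none was available for Tff3, Clca1, Zg16 and Spink4. Capitals mark matches to the E-box CANNTG, the letters that basic helix-loop-helix factors such as Atoh1 read. Sequences run 5′ to 3′ along the gene.

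The Muc2 window lies at chr7:141690090-141690389 and the Fcgbp window at chr7:28070986-28071285, both on the + strand.

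Muc2: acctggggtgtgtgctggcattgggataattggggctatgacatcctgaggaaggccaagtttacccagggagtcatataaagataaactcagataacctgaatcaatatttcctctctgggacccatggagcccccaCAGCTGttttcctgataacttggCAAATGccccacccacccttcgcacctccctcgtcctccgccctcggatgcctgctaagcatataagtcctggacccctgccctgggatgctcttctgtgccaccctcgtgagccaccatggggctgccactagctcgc

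Fcgbp: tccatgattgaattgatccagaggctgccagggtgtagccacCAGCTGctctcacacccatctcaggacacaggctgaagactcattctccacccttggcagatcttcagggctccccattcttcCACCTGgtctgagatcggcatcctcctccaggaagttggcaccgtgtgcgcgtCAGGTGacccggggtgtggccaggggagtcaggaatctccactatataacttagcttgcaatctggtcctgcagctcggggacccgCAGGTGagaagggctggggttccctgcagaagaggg

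The Agr2 window is chr12:35992675-35992974 on the + strand, the Spdef window chr17:27728902-27729201 on the − strand and the Atoh1 window chr6:64728875-64729174 on the + strand.

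Agr2: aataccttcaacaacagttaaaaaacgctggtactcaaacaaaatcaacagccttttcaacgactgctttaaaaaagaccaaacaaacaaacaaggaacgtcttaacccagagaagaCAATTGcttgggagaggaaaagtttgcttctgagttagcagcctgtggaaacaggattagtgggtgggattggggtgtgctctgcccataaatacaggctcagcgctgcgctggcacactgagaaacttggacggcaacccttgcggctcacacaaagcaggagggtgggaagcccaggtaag

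Spdef: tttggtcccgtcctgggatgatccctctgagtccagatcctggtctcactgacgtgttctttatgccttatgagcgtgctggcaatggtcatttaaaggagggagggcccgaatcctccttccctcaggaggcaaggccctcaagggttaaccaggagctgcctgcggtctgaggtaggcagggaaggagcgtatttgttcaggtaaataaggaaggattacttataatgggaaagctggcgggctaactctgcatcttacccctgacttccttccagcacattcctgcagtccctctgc

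Atoh1: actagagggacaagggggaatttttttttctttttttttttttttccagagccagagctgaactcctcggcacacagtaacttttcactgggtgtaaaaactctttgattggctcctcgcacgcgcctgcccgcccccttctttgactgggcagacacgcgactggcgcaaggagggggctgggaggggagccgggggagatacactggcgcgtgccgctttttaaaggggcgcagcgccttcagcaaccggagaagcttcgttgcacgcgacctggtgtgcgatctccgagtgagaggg

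Counted on both strands, CANNTG occurred 4 times at Fcgbp, 2 times at Muc2, 1 time at Agr2 and 0 times at Spdef and Atoh1, and 72.3% of 32851 mouse windows of this length held it. Its form CAGCTG occurred 1 time each at Muc2 and Fcgbp, against 16.3% of all windows. GGAT, the core read by ETS factors such as Spdef, occurred 5 times at Spdef, 4 at Muc2, 2 each at Fcgbp and Agr2 and 0 times at Atoh1, and 79.6% of windows held it. TATAAA was found 1 time at Muc2 and in 13.6% of windows. These counts describe letters in a short window and do not show binding.

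Counts summed per library to 37984403 to 46046333 among lactating females, 34577104 to 47748407 in virgin males and 36508736 to 49039300 in virgin females. The rarest member count in any library was 287, for Spdef in virgin female 1, so counting error was small beside the spread between libraries. The 7 epithelial markers (Epcam, Cdh1, Krt8, Krt18, Krt19, Vil1 and Cdx2) summed to 11346 to 17894 CPM (counts scaled to library size) in lactating females, 12093 to 14065 in virgin males and 10995 to 18195 in virgin females. All 7 stromal and vessel markers stayed under 1 CPM in every library, as did 5 of 9 immune markers. The remaining immune markers reached at most 43.7 CPM (Lyz2), 2.86 (Gzma), 2.28 (Jchain) and 1.47 (Gzmb). Virgin male 6 and virgin female 2 stood apart in Gm42418, a predicted gene that overlaps ribosomal RNA, with 29980.5 and 31048 CPM.

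Per kilobase of annotated exon, the trefoil peptide and the lectin were the most abundant members and the transcription factors the least. Tff3 averaged 1675 ± 696 CPM per kb and Zg16 1439.7 ± 681 (SD over 18 libraries). Spink4 averaged 475 ± 143, Fcgbp 419 ± 161, Clca1 304 ± 113, Agr2 258 ± 54.1 and Muc2 175 ± 64.8 CPM per kb. Atoh1 and Spdef followed at 8.11 ± 1.99 and 7.08 ± 2.03 CPM per kb. The steps from Zg16 to Spink4 and from Muc2 to Atoh1 held in 18 of 18 libraries. The order of Spink4 over Fcgbp and of Clca1 over Agr2 held in 12 of 18, so these neighbours did not separate beyond their spread. Muc2 RNA is long, and its rank depends on the 7127 bases of exon that the annotation gives it.

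**Figure D1:**
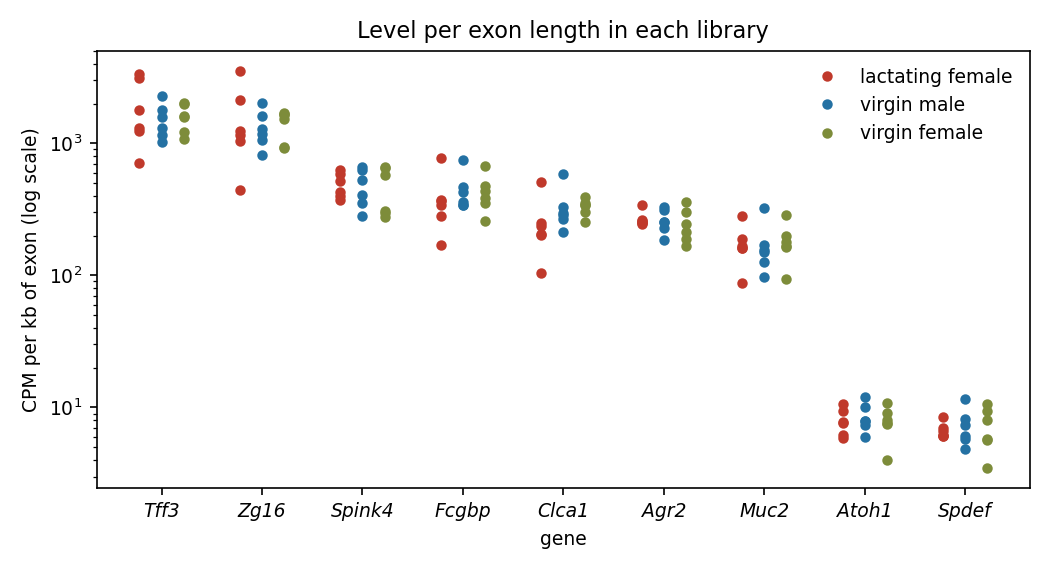
Level of each goblet cell mucus gene in CPM per kilobase of exon (log axis), 1 point per library, with lactating females left, virgin males in the middle and virgin females right within each gene. The 2 transcription factors lie well below the 7 genes of folding and secretion, and the 3 groups overlap at every gene.

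No member was called in any of the 3 comparisons. With edgeR's quasi-likelihood test, Benjamini-Hochberg adjustment over 15572 genes and a call at an adjusted p under 0.05, 0 of 9 members passed between lactating and virgin females, where 0.0578% of all genes tested were called. The count was 0 of 9 between virgin males and virgin females, with 0.0835% of all genes called, and 0 of 9 between lactating females and virgin males, with 0.764% called. No member had an unadjusted p under 0.05 in any comparison, against 6.44%, 8.32% and 15.9% of all genes in the same order, and limma-voom called none. DESeq2 called none of the 9 either, against 0.426%, 0.15% and 1.94% of the genes it gave an adjusted p, in that order. The median log2 fold change of the 9 members was 0.016 for lactating over virgin females, 0.028 for virgin males over virgin females and 0.018 for lactating females over virgin males. Over all genes tested the medians were -0.0026, -0.013 and -0.0084. The groups overlapped for all 9 members in all 3 comparisons, while 0.289% of all genes did not overlap between lactating and virgin females, 0.43% between virgin males and virgin females and 1.34% between lactating females and virgin males. The 95% intervals ran from -1.0 to 1.02 on the log2 scale at their widest, so they contain differences of up to about 2-fold in single members. In bulk RNA, fewer goblet cells and less RNA per goblet cell cannot be told apart. Lactating females and virgin males differ in sex as well as in lactation, and their comparison cannot tell these apart.

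**Figure D2:**
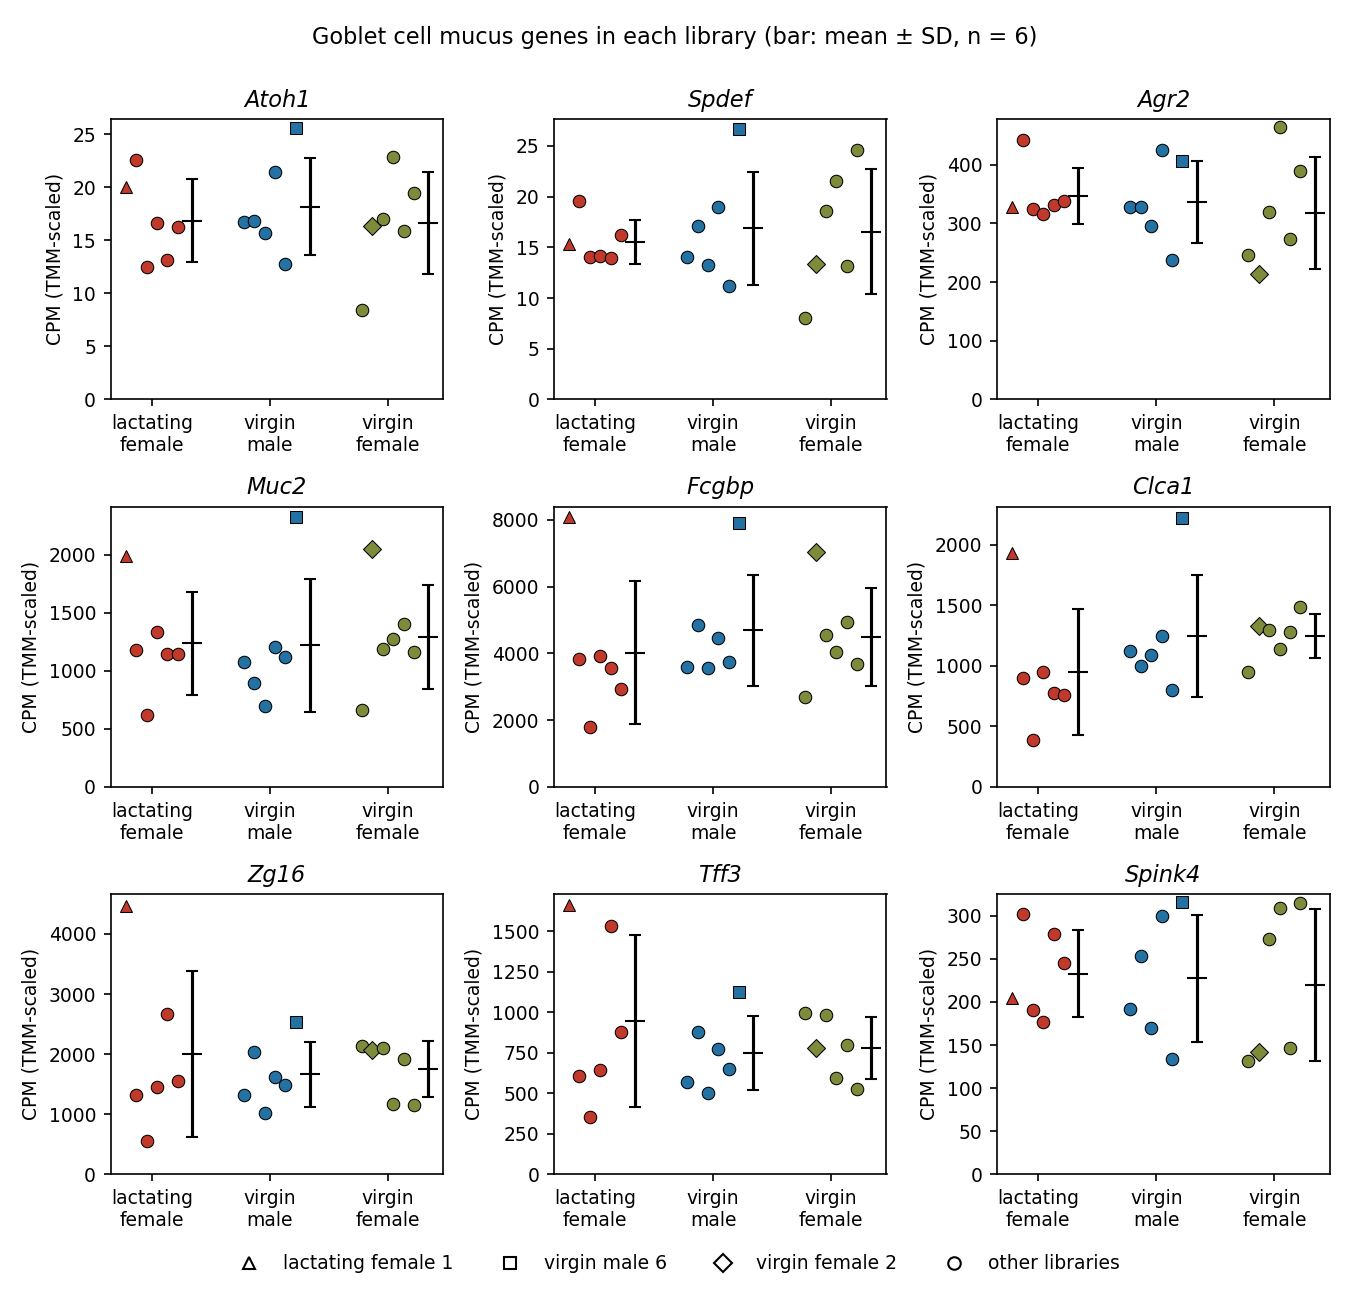
TMM-scaled CPM of the 9 members in each of 18 libraries, lactating females left, virgin males in the middle and virgin females right, with the mean and SD of each group (n = 6) beside its points. Lactating female 1 and virgin male 6 lie above the rest of their groups for Muc2, Fcgbp and Clca1, and the groups overlap in every panel.

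Among the factors that set the fate, Atoh1 (ENSMUSG00000073043, chr6:64729125-64731245, + strand), the helix-loop-helix factor that commits progenitors to the secretory lineage, was low and even across groups. Its lowest, median and highest levels were 12.5, 16.4 and 22.6 CPM in lactating females, 12.7, 16.8 and 25.5 in virgin males and 8.42, 16.6 and 22.9 in virgin females. Virgin male 6 was highest and virgin female 1 lowest, and the groups overlapped. Fitted log2 fold changes of Atoh1 were 0.016 (95% interval -0.42 to 0.45, adjusted p = 0.999) for lactating over virgin females, 0.12 (95% interval -0.31 to 0.56, adjusted p = 0.820) for virgin males over virgin females and -0.11 (95% interval -0.54 to 0.33, adjusted p = 0.791) for lactating females over virgin males. Spdef (ENSMUSG00000024215, chr17:27714352-27728955, − strand), an ETS factor required for the maturation of goblet and Paneth cells, had a lowest, median and highest level of 13.9, 14.7 and 19.5 CPM in lactating females, 11.2, 15.6 and 26.7 in virgin males and 8.03, 16.0 and 24.6 in virgin females. The lactating libraries lay inside the range of the virgin females, and the same libraries as for Atoh1 were highest and lowest. For Spdef the log2 fold changes were -0.091 (95% interval -0.58 to 0.39, adjusted p = 0.981) for lactating over virgin females, 0.028 (95% interval -0.46 to 0.51, adjusted p = 0.970) for virgin males over virgin females and -0.12 (95% interval -0.60 to 0.37, adjusted p = 0.793) for lactating females over virgin males.

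Agr2 (ENSMUSG00000020581, chr12:35992907-36004087, + strand), a disulphide isomerase of the endoplasmic reticulum that mice need to make Muc2, was the steadiest member. Its highest library exceeded its lowest 2.17-fold, against 8.04-fold for Zg16. It ran over a lowest, median and highest of 316, 330.1 and 442 CPM in lactating females, 238, 328 and 425 in virgin males and 214, 296 and 465 in virgin females. In lactating females 5 of 6 libraries sat close together, with lactating female 2 alone above them. As a log2 fold change Agr2 was at 0.13 (95% interval -0.25 to 0.50, adjusted p = 0.960) for lactating over virgin females, 0.084 (95% interval -0.29 to 0.46, adjusted p = 0.861) for virgin males over virgin females and 0.042 (95% interval -0.33 to 0.41, adjusted p = 0.914) for lactating females over virgin males, the narrowest intervals of the 9.

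Muc2 (ENSMUSG00000025515, chr7:141690340-141754693, + strand), the gel-forming mucin that makes up the scaffold of intestinal mucus, averaged 1235 ± 442 CPM in lactating females, 1219.8 ± 571 in virgin males and 1291 ± 447 in virgin females (SD, n = 6 each). The lowest, median and highest libraries were at 621, 1162 and 1991 CPM in lactating females, 696, 1096 and 2326 in virgin males and 666, 1233 and 2045 in virgin females. Each group held 1 library well above its others, lactating female 1, virgin male 6 and virgin female 2. Fitted log2 fold changes of Muc2 were -0.064 (95% interval -0.68 to 0.56, adjusted p = 0.989) for lactating over virgin females, -0.081 (95% interval -0.70 to 0.54, adjusted p = 0.927) for virgin males over virgin females and 0.018 (95% interval -0.60 to 0.64, adjusted p = 0.979) for lactating females over virgin males. Virgin male 6 and virgin female 2 were also the libraries with high Gm42418, and without them the log2 fold change was 0.12 for lactating over virgin females, -0.19 for virgin males over virgin females and 0.31 for lactating females over virgin males, with none called. The part of Gm42418 in these levels was not tested.

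Fcgbp (ENSMUSG00000047730, chr7:28071236-28120862, + strand), a long protein of von Willebrand-type repeats that is a main partner of Muc2 in mucus, had the most counts of the 9. It averaged 4023 ± 2139 CPM in lactating females, 4694 ± 1656 in virgin males and 4491 ± 1468 in virgin females (SD, n = 6 each). The highest level of each group was in the same library as for Muc2, at 8079.7 CPM in lactating female 1, 7905 in virgin male 6 and 7037 in virgin female 2. Between groups, the log2 fold change of Fcgbp was -0.16 (95% interval -0.80 to 0.48, adjusted p = 0.970) for lactating over virgin females, 0.064 (95% interval -0.58 to 0.71, adjusted p = 0.944) for virgin males over virgin females and -0.22 (95% interval -0.87 to 0.42, adjusted p = 0.701) for lactating females over virgin males. Without lactating female 1, the fold change over virgin females was -0.48 and that over virgin males -0.55, with neither called. RefSeq gives the name FCGBP as a synonym of a gene beside it, 9530053A07Rik (chr7:28129466-28164811), and reads of the pair could be split. 9530053A07Rik had 52.3 ± 23.5 CPM in lactating females, 54.1 ± 21.1 in virgin males and 51.1 ± 14.8 in virgin females (SD, n = 6 each).

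Clca1 (ENSMUSG00000028255, chr3:145003817-145032776, − strand), a secreted metalloprotease that trims the Muc2 network in mice, had the largest fitted difference of the 9, and it was not called. Its lowest, median and highest libraries were at 391, 836 and 1931 CPM in lactating females, 798, 1106 and 2222 in virgin males and 951, 1288 and 1486 in virgin females. Lactating female 1 lay above every virgin female library and the other 5 lactating libraries below them all, so the groups overlapped through 1 library. The gap below was small, with lactating female 4 at 948.04 CPM and virgin female 1 at 951.2 CPM. Among virgin males, virgin male 5 at 798 CPM lay below lactating females 2 and 4. The log2 fold change was -0.39 (95% interval -1.0 to 0.22, adjusted p = 0.912) for lactating over virgin females, -0.39 (95% interval -1.0 to 0.22, adjusted p = 0.486) for lactating females over virgin males and -1.2e-05 (95% interval -0.60 to 0.60, adjusted p = 0.99997) for virgin males over virgin females. Without lactating female 1 the values were -0.73 (adjusted p = 0.527) over virgin females and -0.72 (adjusted p = 0.329) over virgin males. The 2 comparisons of lactating females share the lactating libraries.

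Zg16 (ENSMUSG00000049350, chr7:127050156-127087328, − strand), a lectin of mucus that binds peptidoglycan of Gram-positive bacteria, varied most among libraries. It ran over a lowest, median and highest of 555, 1510.3 and 4463 CPM in lactating females, 1018, 1552 and 2528 in virgin males and 1157, 1993 and 2133 in virgin females. Both the highest and the lowest of all 18 libraries were lactating ones, lactating female 1 and lactating female 3. Zg16 had a log2 fold change of 0.19 (95% interval -0.56 to 0.94, adjusted p = 0.970) for lactating over virgin females, -0.078 (95% interval -0.83 to 0.67, adjusted p = 0.941) for virgin males over virgin females and 0.27 (95% interval -0.49 to 1.02, adjusted p = 0.695) for lactating females over virgin males. Without lactating female 1, the difference from virgin females was -0.22 and that from virgin males -0.14. The predicted genes Gm44939 and Gm22747 overlap Zg16 on the other strand and had 0 counts in every library.

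Tff3 (ENSMUSG00000024029, chr17:31125306-31129646, − strand), a trefoil peptide that promotes repair of the epithelium, followed Zg16 in its extremes. Its lowest, median and highest levels were 352, 763 and 1663 CPM in lactating females, 501, 711 and 1126 in virgin males and 530.3, 789.6 and 995 in virgin females. Lactating females 1 and 5 exceeded every virgin library, while lactating female 3 was the lowest of all. Tff3 had a log2 fold change of 0.28 (95% interval -0.37 to 0.93, adjusted p = 0.943) for lactating over virgin females, -0.060 (95% interval -0.71 to 0.59, adjusted p = 0.948) for virgin males over virgin females and 0.34 (95% interval -0.31 to 0.99, adjusted p = 0.563) for lactating females over virgin males, and without lactating female 1 the lactating values were 0.041 over virgin females and 0.10 over virgin males. Spink4 (ENSMUSG00000028415, chr4:40920052-40931395, + strand), a secreted peptide of the Kazal-type protease inhibitor family, had 176, 225 and 302 CPM in lactating females, 134, 223 and 316 in virgin males and 132, 209.9 and 314 in virgin females as its lowest, median and highest. The virgin females split into 3 libraries at 132 to 147 CPM and 3 at 273 to 314 CPM, with none between. Spink4 had a log2 fold change of 0.085 (95% interval -0.45 to 0.62, adjusted p = 0.985) for lactating over virgin females, 0.052 (95% interval -0.48 to 0.58, adjusted p = 0.945) for virgin males over virgin females and 0.033 (95% interval -0.50 to 0.57, adjusted p = 0.952) for lactating females over virgin males.

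**Figure D3:**
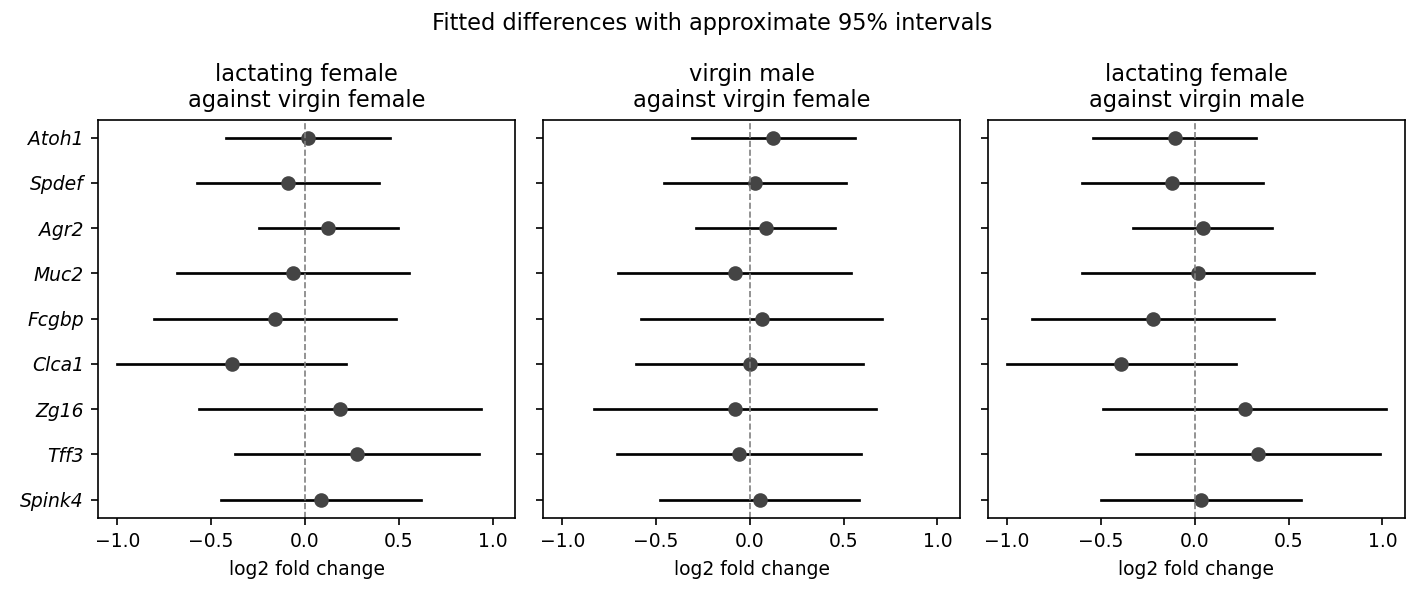
Fitted log2 fold change of each member (point) with its approximate 95% interval (line) in the 3 comparisons, with the first-named group on top of the ratio. Every interval includes 0, and the points lie between -0.39 and 0.34.

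Genes that work beside the members were counted from lists made for the goblet cell and its neighbours. Of 36 other goblet cell markers, all were tested and 0 were called in each of the 3 comparisons by edgeR, with 2, 3 and 5 at an unadjusted p under 0.05 for lactating over virgin females, virgin males over virgin females and lactating females over virgin males. In the same order 6.44%, 8.32% and 15.9% of all genes tested had such a p, so these counts lay near the background. Their median log2 fold change was -0.017 for lactating over virgin females, 0.054 for virgin males over virgin females and -0.084 for lactating females over virgin males. Scin, an actin-severing protein of the goblet cell, was at 188 ± 21.6 CPM in lactating and 242 ± 38.0 CPM in virgin females (log2 fold change -0.37, SE 0.113, adjusted p = 0.482). Tspan13, a membrane tetraspanin, was at 94.6 ± 41.2 CPM for lactating females and 59.2 ± 4.41 CPM for virgin males (0.68, SE 0.202, adjusted p = 0.142). Its fold change was 0.41 without lactating female 1 and 0.36 with the cell cycle score, the mean log2 CPM of 20 genes of dividing cells, as a covariate. Among 19 genes of secretory fate and Notch signalling, 1 was called in 1 comparison, lactating females over virgin males, where 0.764% of all genes were called. In the order above, 1, 1 and 7 had an unadjusted p under 0.05, against 6.44%, 8.32% and 15.9% of all genes. The 7 of 19 lay above the 15.9% of its comparison, and no test of the list was run. The 19 genes had a median log2 fold change of -0.11 for lactating over virgin females, 0.093 for virgin males over virgin females and -0.18 for lactating females over virgin males. In the last comparison the fitted value was below 0 for 17 of the 19 genes and above 0 for 2, while 48.9% of all genes tested lay above 0. The called gene was 1 of those 2. Dll4, a Notch ligand, was at 17.9 ± 4.31 CPM in lactating females, against 10.3 ± 1.32 CPM in virgin males (SD, n = 6 each), a log2 fold change of 0.79, SE 0.157, adjusted p = 0.0201. Virgin females had 14.7 ± 2.71 CPM, and neither comparison with them called Dll4. The call of Dll4 held under 22 of 26 alternative analyses and was lost without lactating female 1, lactating female 6, virgin male 1 or virgin male 2, with adjusted p-values up to 0.0621. The other ligand of the secretory lineage, Dll1, was at 26.6 ± 3.98 CPM in lactating and 35.4 ± 3.45 CPM in virgin females (-0.41, SE 0.102, adjusted p = 0.226), which did not pass here and passed under 1 of 26 alternatives.

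The machinery that folds and exports mucins was counted through 22 genes, of which 0 were called in any comparison, with 2, 1 and 4 at an unadjusted p under 0.05 in the order above, against 6.44%, 8.32% and 15.9% of all genes. Their median log2 fold changes were 0.14 for lactating over virgin females, -0.036 for virgin males over virgin females and 0.20 for lactating females over virgin males. The fitted value was above 0 for 17, 9 and 19 of the 22 in that order, against 49.4%, 48.0% and 48.9% of all genes. These counts were not tested. Pdia5, a disulphide isomerase, was at 23.7 ± 3.77 CPM in lactating and 18.1 ± 3.19 CPM in virgin females (0.39, SE 0.131, adjusted p = 0.542). Of 13 genes of mucus release and maturation, 12 were tested and 0 called, with 1, 4 and 4 at an unadjusted p under 0.05, to be read against the same shares of all genes. Marcks, a substrate of protein kinase C that takes part in granule release, was at 43.2 ± 9.27 CPM in lactating and 29.3 ± 8.26 CPM in virgin females (0.56, SE 0.168, adjusted p = 0.445). Mep1b, a subunit of the meprin protease that frees Muc2 from the small intestinal surface in mice, was at 1073 ± 240.1 CPM in virgin males and 1645 ± 725 CPM in virgin females (-0.62, SE 0.254, adjusted p = 0.565). Its fold change was -0.36 without virgin female 1. Its partner subunit Mep1a was at 647 ± 75.2 CPM in virgin males and 941 ± 261 CPM in virgin females (-0.54, SE 0.226, adjusted p = 0.565). With the cell cycle score as a covariate the log2 fold changes were -0.21 for Mep1b and -0.23 for Mep1a. All 12 genes of an absorptive enterocyte list also lay below 0 for virgin males over virgin females (median -0.67). Of these, 7 had an unadjusted p under 0.05, against 8.32% of all genes, and 0 were called. The part of enterocyte content in the meprin values was not tested. Of 9 genes of the type 2 cytokine and interleukin-22 input, 7 were tested and 0 called, and Retnlb and Il25 did not pass the filter on low counts. In the order above 0, 2 and 1 had an unadjusted p under 0.05, against 6.44%, 8.32% and 15.9% of all genes. The fitted value was above 0 for 2, 0 and 6 of the 7, with a median of -0.37 for virgin males over virgin females. No test of this list was run.

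Relatives of the members showed which branches of these families the ileal epithelium used. The gastric and airway mucins Muc5ac, Muc5b, Muc6 and Muc19 stayed at or below 0.155 CPM in every library, and Tff1 and Tff2, the trefoil peptides of the stomach, at or below 0.0366 CPM. The membrane mucins Muc13 and Muc3, which belong largely to enterocytes, ranged over 3368 to 8429 and 752 to 2529.9 CPM. Of the 19 relatives 11 were tested and 0 were called, with 0, 1 and 6 at an unadjusted p under 0.05 in the order above, against 6.44%, 8.32% and 15.9% of all genes. Clca4b, a family member of Clca1, was at 2550.1 ± 1246 CPM in lactating females, 1318 ± 363 in virgin males and 2504 ± 964 in virgin females. As log2 fold changes these were 0.95, SE 0.307, adjusted p = 0.174 for lactating females over virgin males and -0.93, SE 0.307, adjusted p = 0.565 for virgin males over virgin females. Clca4a was at 1479.7 ± 1209 CPM for lactating females and 498 ± 298 CPM for virgin males (1.57, SE 0.518, adjusted p = 0.183). Muc3 stood at 1715 ± 680.0 CPM for lactating females and 1031 ± 307 CPM for virgin males (0.73, SE 0.246, adjusted p = 0.188). With the cell cycle score as a covariate the log2 fold changes for lactating females over virgin males were 0.63 for Clca4a, 0.52 for Clca4b and 0.42 for Muc3, and that of Clca4b for virgin males over virgin females was -0.41. For lactating females over virgin males 11 of the 12 absorptive enterocyte genes lay above 0 (median 0.67). Of the 12, 7 had an unadjusted p under 0.05, against 15.9% of all genes, and 0 were called. The part of enterocyte content in these relatives was not tested. The Clca genes lie close in sequence, so counts could be shared among them. Among markers of other secretory cells, the enteroendocrine hormone gene Gcg was at 66.6 ± 20.01 CPM in lactating females, against 35.7 ± 8.67 CPM in virgin males (0.90, SE 0.204, adjusted p = 0.0460). That call held under 10 of 26 alternatives and was lost on leaving out any 1 of 14 of the 18 libraries. Neither comparison with virgin females called Gcg. Gcg alone of 9 enteroendocrine genes was called, where 0.764% of all genes were. In lactating females the fitted value was above 0 for 8 of the 9 over virgin males and all 9 over virgin females. In each, 5 of 9 had an unadjusted p under 0.05, against 15.9% and 6.44% of all genes. Of 11 Paneth genes, all lay below 0 over virgin females (median -0.48) and 9 over virgin males (median -0.47), 1 with such a p in each. No test of these lists was run.

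The members did not vary as 1 block across the 18 libraries. All 36 pairs were correlated on log2 CPM (2-sided permutation tests, 100000 permutations, adjusted over the 36 pairs); 17 had an adjusted p under 0.05 for Pearson's r, all 17 were positive, and 14 of them were positive in every group. These values share library, scaling and depth, so they describe joint variation of the libraries. Without virgin female 2 and virgin male 6, r of the 17 pairs ran from 0.489 to 0.961. Tff3 and Zg16 were the closest pair, with r = 0.957 (permutation p = 1e-05, adjusted p = 0.000120) and rho = 0.967 (permutation p = 1e-05, adjusted p = 9e-05), and 1e-05 is the smallest p that these permutations can give. Within groups their r was 0.967 among lactating females, 0.986 among virgin males and 0.938 among virgin females, and without the 2 libraries farthest in Tff3, lactating females 1 and 3, it was 0.937.

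A block of mucin and partners was formed by Muc2, Fcgbp and Clca1. Muc2 and Fcgbp had r = 0.868 (permutation p = 2e-05, adjusted p = 0.000120) and rho = 0.818 (permutation p = 8e-05, adjusted p = 0.000480). Within groups r was 0.971 among lactating females, 0.840 among virgin males and 0.964 among virgin females, and 0.781 without lactating female 3 and virgin male 6. Clca1 and Fcgbp had r = 0.866 (permutation p = 2e-05, adjusted p = 0.000120) and rho = 0.761 (permutation p = 0.000410, adjusted p = 0.00184), with 0.992 among lactating females, 0.852 among virgin males and 0.578 among virgin females within groups and 0.719 without the same libraries. Muc2 and Clca1 were at r = 0.723 (permutation p = 0.000640, adjusted p = 0.00256) and rho = 0.674 (permutation p = 0.00281, adjusted p = 0.0101), and r was 0.497 without those 2 libraries and 0.640 without virgin female 2 and virgin male 6.

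A further block was formed by the factors, the isomerase and Spink4. Agr2 and Spink4 had r = 0.901 (permutation p = 1e-05, adjusted p = 0.000120) and rho = 0.917 (permutation p = 1e-05, adjusted p = 9e-05), with r of 0.734 among lactating females, 0.955 among virgin males and 0.910 among virgin females within groups. Without virgin females 2 and 4, the farthest in Agr2, it was 0.900. Spdef and Atoh1 had r = 0.885 (permutation p = 2e-05, adjusted p = 0.000120) and rho = 0.874 (permutation p = 1e-05, adjusted p = 9e-05). Their r was 0.807 among lactating females, 0.965 among virgin males and 0.915 among virgin females, and 0.760 without virgin female 1 and virgin male 6. Spdef and Spink4 had r = 0.877 (permutation p = 1e-05, adjusted p = 0.000120) and rho = 0.928 (permutation p = 1e-05, adjusted p = 9e-05), with 0.626 among lactating females, 0.940 among virgin males and 0.918 among virgin females within groups and 0.877 without the same 2 libraries.

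The blocks were not separate at Atoh1, which passed with all 3 genes of the mucin block and was positive with each of them in every group. With Muc2 it had r = 0.634 (permutation p = 0.00469, adjusted p = 0.0141) and rho = 0.614 (permutation p = 0.00779, adjusted p = 0.0234). Within groups r was 0.669 among lactating females, 0.716 among virgin males and 0.651 among virgin females. It was 0.495 without lactating female 3 and virgin male 6. With Fcgbp it had r = 0.581 (permutation p = 0.0124, adjusted p = 0.0279) and rho = 0.626 (permutation p = 0.00642, adjusted p = 0.0210). With Clca1 it had r = 0.578 (permutation p = 0.0149, adjusted p = 0.0316) and rho = 0.604 (permutation p = 0.00959, adjusted p = 0.0266). No pair of Agr2, Spdef or Spink4 with a gene of the mucin block passed.

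Muc2 and Agr2, the mucin and the isomerase that folds it, did not pass, with r = 0.117 (permutation p = 0.642, adjusted p = 0.797) and rho = 0.195 (permutation p = 0.437, adjusted p = 0.605). That r was 0.299 without virgin female 2 and virgin male 6. The ratio of their CPM ran from 1.92 to 6.06 in lactating females, 2.36 to 5.72 in virgin males and 2.71 to 9.55 in virgin females. Virgin female 2 had the highest ratio, with 2045 CPM of Muc2 and 214 CPM of Agr2. The next highest ratio among virgin females was 5.14. Zg16 and Agr2 had r = -0.159 (permutation p = 0.529, adjusted p = 0.741) and rho = -0.117 (permutation p = 0.642, adjusted p = 0.856), and r within groups was -0.0991 among lactating females, 0.505 among virgin males and -0.868 among virgin females. The pooled value thus joins groups in which the sign differed, and the difference between groups was not tested. Pairs of Muc2, Fcgbp or Clca1 with Tff3 or Zg16 depended on extreme libraries. Fcgbp and Zg16 had r = 0.737 (permutation p = 0.000940, adjusted p = 0.00308) and rho = 0.476 (permutation p = 0.0493, adjusted p = 0.127). Their r was 0.413 without lactating females 1 and 3. Clca1 and Zg16 had r = 0.634 (permutation p = 0.00714, adjusted p = 0.0187) and rho = 0.337 (permutation p = 0.171, adjusted p = 0.308). Their r was 0.316 without lactating female 3 and virgin male 6. For Muc2 and Zg16, r = 0.615 (permutation p = 0.00727, adjusted p = 0.0187) and rho = 0.414 (permutation p = 0.0899, adjusted p = 0.216); within groups r was 0.903 among lactating females, 0.783 among virgin males and -0.0441 among virgin females, and it was 0.429 without lactating female 3 and virgin male 6.

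**Figure D4:**
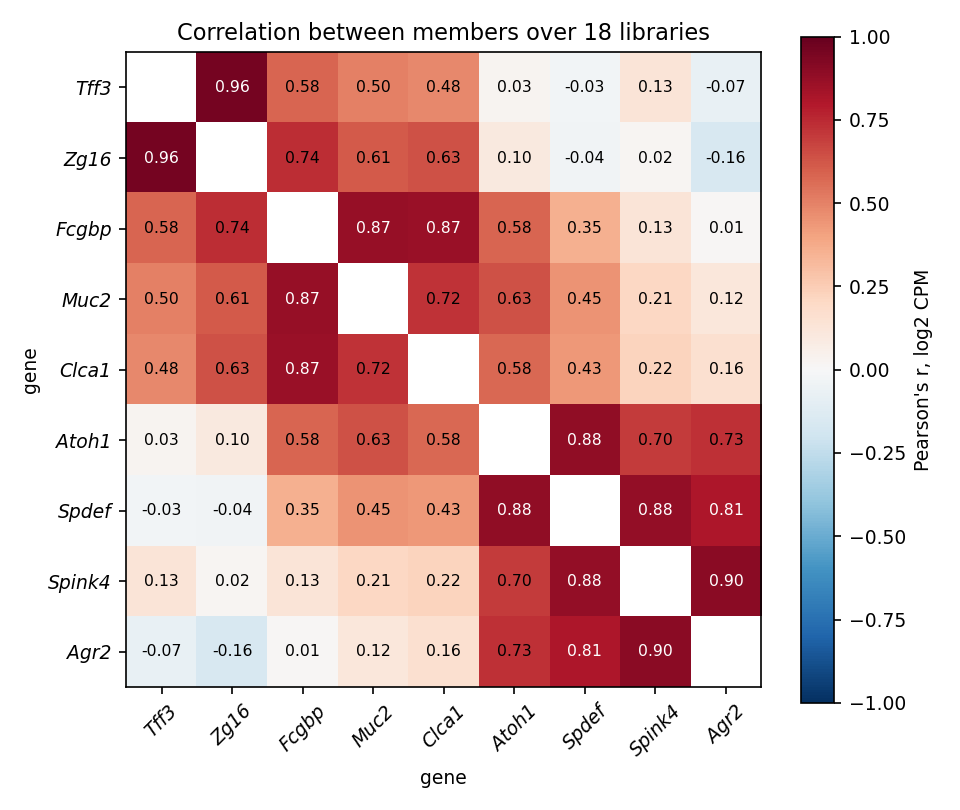
Pearson's r of log2 CPM between each pair of members over 18 libraries, from red (positive) to blue (negative), both axes listing the 9 genes. Tff3 with Zg16, the 3 genes Fcgbp, Muc2 and Clca1, and the 4 genes Atoh1, Spdef, Spink4 and Agr2 form 3 red blocks along the diagonal. Values lie near 0 between the first and the last. They are positive between the first and the second, up to 0.737 for Fcgbp and Zg16. Atoh1 is also positive with the genes of the second.

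The members were also set against the make-up of the libraries, measured by marker scores, the mean log2 CPM of a marker list. Of 72 relations of the 9 members with 7 cell type or cell state scores and with Gm42418, 17 had an adjusted p under 0.05 over the 72, 13 positive and 4 negative, each with the same sign in every group. The cell cycle score ran against Zg16 and Tff3. It did not pass with the other secreted products, at r = -0.210 with Muc2 (permutation p = 0.404, adjusted p = 0.559) and -0.201 with Clca1 (permutation p = 0.424, adjusted p = 0.565). Nor did it with Fcgbp and Spink4, at r = -0.288 (permutation p = 0.248, adjusted p = 0.364) and 0.515 (permutation p = 0.0292, adjusted p = 0.0876). With Zg16 it had r = -0.716 (permutation p = 0.000420, adjusted p = 0.00605) and rho = -0.756 (permutation p = 0.000460, adjusted p = 0.00828), with -0.870 among lactating females, -0.208 among virgin males and -0.891 among virgin females within groups, and -0.605 without lactating female 1 and virgin female 1. With Tff3 it had r = -0.698 (permutation p = 0.00120, adjusted p = 0.0123) and rho = -0.732 (permutation p = 0.000850, adjusted p = 0.0122). Within groups it was -0.872 among lactating females, -0.102 among virgin males and -0.815 among virgin females, and -0.584 without those libraries. With Agr2 the relation was the other way, at r = 0.636 (permutation p = 0.00444, adjusted p = 0.0246) and rho = 0.595 (permutation p = 0.0105, adjusted p = 0.0398). Within groups it was 0.530 among lactating females, 0.729 among virgin males and 0.925 among virgin females, and 0.729 without the same 2 libraries. The score itself averaged 4.82 ± 0.604 log2 CPM in lactating females, 5.18 ± 0.162 in virgin males and 4.73 ± 0.566 in virgin females (SD, n = 6 each).

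The Paneth score, from 11 genes such as Lyz1, Defa24 and Mmp7, passed with Spdef, Atoh1, Spink4 and Agr2 and with none of the other 5 members. With Spdef it had r = 0.889 (permutation p = 1e-05, adjusted p = 0.000720) and rho = 0.829 (permutation p = 6e-05, adjusted p = 0.00324). Within groups it was 0.657 among lactating females, 0.810 among virgin males and 0.960 among virgin females, and 0.808 without virgin females 1 and 4. With Atoh1 it had r = 0.828 (permutation p = 5e-05, adjusted p = 0.00120) and rho = 0.796 (permutation p = 0.000180, adjusted p = 0.00432), and 0.655 without the same libraries. With Spink4 r was 0.796 and with Agr2 0.711 (permutation p = 2e-05 and 0.000750, adjusted p = 0.000720 and 0.00900). With Muc2 it had r = 0.391 (permutation p = 0.109, adjusted p = 0.201) and rho = 0.358 (permutation p = 0.147, adjusted p = 0.258), and with Zg16 r = -0.0729 (permutation p = 0.767, adjusted p = 0.876) and rho = -0.0650 (permutation p = 0.797, adjusted p = 0.832), neither past the threshold. The value of Zg16 joins groups of unlike sign, -0.116 among lactating females, 0.646 among virgin males and -0.617 among virgin females, and the difference between groups was not tested. The Paneth genes summed to 4990.0 to 13309 CPM in lactating females, 4476 to 19439 in virgin males and 1467 to 19284 in virgin females. Their part in the levels of Atoh1, Spdef, Spink4 and Agr2 was not tested. Spdef and Atoh1 passed also with the stem score, from 7 genes such as Lgr5, at r = 0.672 and 0.688 (permutation p = 0.00217 and 0.00151, adjusted p = 0.0156 and 0.0136). Spdef passed with the cell cycle score by r = 0.581 (permutation p = 0.0110, adjusted p = 0.0466), and not by rho = 0.552 (permutation p = 0.0184, adjusted p = 0.0631). Virgin female 1, lowest in the Paneth score and in the stem score, was also lowest in Atoh1, Spdef and Spink4.

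**Figure D5:**
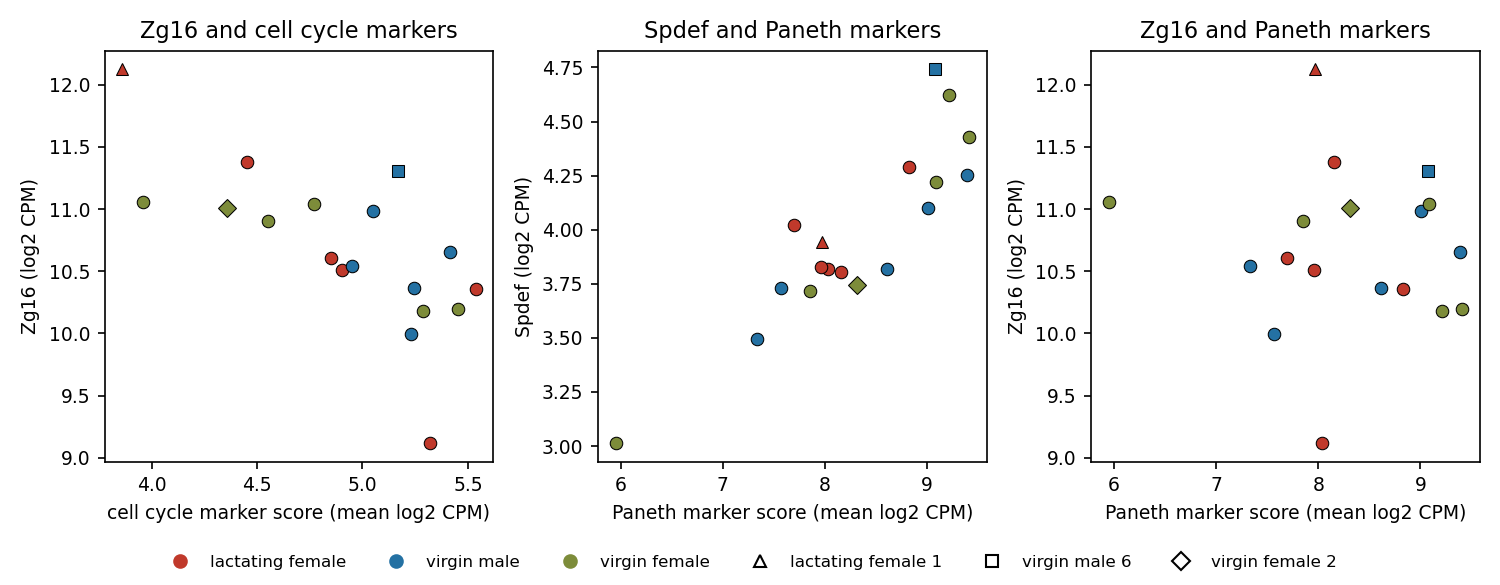
Log2 CPM of Zg16 against the cell cycle score (left), of Spdef against the Paneth score (middle) and of Zg16 against the Paneth score (right), 1 point per library, coloured by group. Zg16 declines as the cell cycle score grows and Spdef climbs with the Paneth score, while Zg16 and the Paneth score have r = -0.0729 over all libraries, with -0.116 among lactating females, 0.646 among virgin males and -0.617 among virgin females.

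By Pearson's r, Gm42418 passed with Muc2 alone of the 9, at r = 0.644 (permutation p = 0.00517, adjusted p = 0.0266) and rho = 0.366 (permutation p = 0.136, adjusted p = 0.247), and r was 0.217 without virgin female 2 and virgin male 6, so this relation rested on those libraries. By Spearman's rho it passed instead with Tff3 (rho = 0.680, permutation p = 0.00265, adjusted p = 0.0212) and Zg16 (rho = 0.664, permutation p = 0.00349, adjusted p = 0.0251). The summed CPM of the 9 members ran from 4253 to 18697 in lactating females, 7372 to 16879.9 in virgin males and 7839 to 13643 in virgin females, with Fcgbp as its main part.

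Genes outside the 9 that were most like them were ranked by Pearson's r with the mean of the members, on log2 CPM centred within groups over the 18 libraries, among 9236 genes with a mean of at least 5 CPM. Among the 10 highest were Bcas1 at r = 0.930, Tpsg1 at 0.918, Rab27b at 0.899, Rgs2 at 0.885, Capn9 at 0.876, Ramp1 at 0.875, Klk1 at 0.871, Serpina1b at 0.865 and Hepacam2 at 0.859. Bcas1, Tpsg1, Capn9 and Klk1 stand on the list of other goblet cell markers. With Muc2 alone the highest were Mical3 at 0.907, Rap1gap2 and Syt7 at 0.901 and 0.901, Fer1l6 at 0.893 and Rasd2 at 0.871. These are ranks of likeness over the same libraries and carry no test.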

How the data were processed

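Polyadenylated RNA of 18 libraries was extracted on micro columns and made into directional libraries, per the labels' protocols. The authors deposited 1 table per library with a raw count of reads per Ensembl gene. The submitters' processing notes name the aligner HISAT2 2.0.4, featureCounts from Subread 2.0.0, FastQC 0.11.5, DESeq2 1.24.0 and build GRCm38. Which annotation release was counted, whether strand was used and how multiply matching reads were treated is not given in the sources used here, so counts of overlapping genes and of near copies may be mixed. Symbols and positions were taken from GENCODE M21 (GRCm38), which held 47310 of the 47729 identifiers; 0 rows named no gene.

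Counts were filtered with filterByExpr, which left 15572 genes with all 9 members among them, and scaled with TMM factors in edgeR 4.0.16 (R 4.3.3). A single quasi-likelihood fit gave each group a mean over all 18 libraries, with Benjamini-Hochberg adjustment across those 15572 genes. CPM values are on the TMM scale, and log2 CPM uses a prior count of 2. Standard errors are the absolute log2 fold change over the square root of F. The 95% intervals use the t distribution with the total degrees of freedom of the fit, residual plus prior (18.9 for the members). Alternatives were DESeq2 1.42.0, limma-voom 3.58.1 with quality weights, DESeq2 size factors, no filter, 2 groups alone, a cell cycle covariate, a replicate block and leaving out libraries. The fit was tested on simulated counts. All 153 pairs of libraries differed by more than sampling noise (lowest chi-square per degree of freedom 35.6). Counts are of reads without molecular identifiers.

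The 9 members and the lists beside them were chosen with earlier results of these data known. All 9 members are named, and of each list the genes named come from the up to 4 with the smallest p in any comparison and every called one. Of the genes ranked by likeness, 1 is not reported here. P-values of correlations are from 100000 permutations in Python 3.11.15 with NumPy 2.4.6.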

Additional observations from a re-analysis of the deposited data

Results flagged for a closer look

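In 9 of 33 groups of 6 values examined (the 9 members, their sum and Gm42418, in 3 groups), 1 library lay so far from the others that its gap to the nearest one passed Dixon's 95% critical value. Chance gives such a gap in about 1 in 20 groups, and the genes of 1 library are not independent. In virgin male 6, Muc2 was at 2326 CPM, against 696 to 1206 in the other virgin males. Clca1 was at 2222 CPM there, against 798 to 1243 in the others, and Fcgbp at 7905 CPM, against 3573 to 4861. The sum of the 9 members was 16879.9 CPM in virgin male 6 and 7372 to 10282 in the other virgin males. In lactating female 1, Clca1 was at 1931 CPM, against 391 to 948 in the other lactating females, and Fcgbp at 8079.7 CPM, against 1792 to 3929.5. Agr2 was at 442 CPM in lactating female 2 and 316 to 338 in the other lactating females. Gm42418 was at 29980.5 CPM in virgin male 6, against 1893 to 2363 in the other virgin males, and at 31048 CPM in virgin female 2, against 1230.2 to 3594 in the other virgin females.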

How the results depend on the processing

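Under 26 alternatives per comparison, 0 of 9 members were called in any comparison, and the smallest adjusted p of 702 member values was 0.230, for Clca1 with voom quality weights between lactating females and virgin males. The main values that changed sign under some alternative included Tff3 at 0.34 and Zg16 at 0.27, for lactating females over virgin males. In all, fitted values changed sign in 88 of the 702. Without virgin female 2 and virgin male 6 these log2 fold changes were Muc2 0.12, Fcgbp 0.015 and Spink4 -0.014 for lactating over virgin females, Agr2 -0.068, Spdef -0.20, Spink4 -0.16 and Atoh1 -0.0040 for virgin males over virgin females and Spdef 0.058 and Atoh1 0.014 for lactating females over virgin males. With the cell cycle score as covariate they were Muc2 0.049, Tff3 0.34, Clca1 0.15, Zg16 0.41, Agr2 -0.077, Spdef -0.14 and Spink4 -0.12 for virgin males over virgin females and Muc2 -0.13, Tff3 -0.12, Zg16 -0.31, Spdef 0.076 and Atoh1 0.028 for lactating females over virgin males. With voom quality weights they were Tff3 -0.12, Zg16 -0.29, Spink4 -0.0026 and Atoh1 -0.034 for lactating over virgin females, Fcgbp -0.046, Spdef -0.11 and Spink4 -0.039 for virgin males over virgin females and Zg16 -0.052 for lactating females over virgin males, and with 2 groups alone Clca1 was 0.017 for virgin males over virgin females. Leaving out 1 library at a time moved the log2 fold changes that crossed 0 over these ranges. For lactating over virgin females they were Muc2 -0.25 to 0.11, Fcgbp -0.48 to 0.014, Zg16 -0.22 to 0.38, Spdef -0.23 to 0.056, Spink4 -0.027 to 0.21 and Atoh1 -0.12 to 0.13. For virgin males over virgin females they were Muc2 -0.37 to 0.10, Tff3 -0.21 to 0.032, Clca1 -0.25 to 0.10, Fcgbp -0.15 to 0.24, Zg16 -0.24 to 0.030, Agr2 -0.0077 to 0.22, Spdef -0.15 to 0.18, Spink4 -0.064 to 0.18 and Atoh1 -0.012 to 0.24. For lactating females over virgin males they were Muc2 -0.17 to 0.31, Zg16 -0.14 to 0.46, Agr2 -0.041 to 0.12, Spdef -0.21 to 0.057, Spink4 -0.081 to 0.15 and Atoh1 -0.21 to 0.013. The cause was not tested. The r of Muc2 with Agr2 ran from -0.0176 to 0.384.

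The labels do not say whether their numbers pair the libraries. Same-numbered deviations from the group means correlated at -0.219 to 0.477. Differently numbered libraries were not set beside them, so these values do not settle whether the numbers pair. With the replicate block, 0 of 9 members were called in each comparison, and the genes called overall were 1, 11 and 114 for lactating over virgin females, virgin males over virgin females and lactating females over virgin males, against 9, 13 and 119 without it. DESeq2 called 67, 43 and 409 genes in the same order, the 2 groups alone 1, 11 and 112, leaving out virgin female 2 with virgin male 6 gave 1, 11 and 61, the cell cycle covariate 59, 13 and 134 and voom 2, 20 and 217. Counting error was small at this depth; the 95% intervals of the members, between -1.0 and 1.02 on the log2 scale, set what these libraries can resolve.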

Other observations

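The relation of the mucin block to the absorptive enterocyte score, the mean log2 CPM of 12 brush border and transport genes, differed in sign between groups. Within lactating females r was 0.817 for Muc2, 0.809 for Clca1 and 0.815 for Fcgbp. Within virgin males the values were -0.884 for Muc2, -0.923 for Clca1 and -0.773 for Fcgbp, and within virgin females -0.276, -0.406 and -0.0435. Each rests on 6 libraries, the pooled values did not pass (for Muc2, r = -0.0338 (permutation p = 0.895, adjusted p = 0.912) and rho = 0.0815 (permutation p = 0.748, adjusted p = 0.812)), and the difference between groups was not tested. Virgin male 6, the virgin male highest in these genes, had a score of 9.22, against 9.69 to 10.39 in the other virgin males. Lactating female 1, highest in its group, had 11.47, against 10.03 to 10.82 in the other lactating females. The values of r within groups lean on these libraries, and r without them was not computed. Agr2 was negative in all 3 groups, at -0.517 among lactating females, -0.780 among virgin males and -0.898 among virgin females, with r = -0.641 (permutation p = 0.00403, adjusted p = 0.0242) and rho = -0.626 (permutation p = 0.00636, adjusted p = 0.0308) over the 18 libraries and -0.714 without lactating female 1 and virgin male 6. Spdef had r = -0.662 with the absorptive enterocyte score (permutation p = 0.00275, adjusted p = 0.0180). The tuft cell score, from 7 genes, had r = 0.775 (permutation p = 0.000210, adjusted p = 0.00378) and rho = 0.711 (permutation p = 0.00123, adjusted p = 0.0148) with Atoh1, and 0.635 without lactating female 3 and virgin female 1. It passed also with Spdef, Clca1 and Agr2, at r = 0.676, 0.599 and 0.595 (permutation p = 0.00200, 0.00842 and 0.00914, adjusted p = 0.0156, 0.0404 and 0.0411). For Clca1 rho did not pass, at 0.368 (permutation p = 0.132, adjusted p = 0.247).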
